A study of Mus musculus with 2 samples.

Results

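The genes described here encode the matrix metalloproteinases (MMPs), the ADAMTS proteases, the ADAMTS-like proteins and the tissue inhibitors of metalloproteinases (TIMPs). They were taken by name from the array: every non-control probe whose gene name was Mmp, Adamts or Timp followed by a number and an optional letter, or Adamtsl followed by a number. This gave 51 of the 37074 gene names on the array, read by 103 probes, with 23 Mmp, 19 Adamts, 5 Adamtsl and 4 Timp genes. The study knocked down Ppp2r5d, the gene of the B56 delta regulatory subunit of protein phosphatase 2A, in mouse cardiomyocytes (MCMs) to find the genes that changed with it. The cells were bought from a company as cardiomyocytes, passaged, and grown in DMEM with a low concentration of fetal bovine serum. The siRNA-NC group (labelled siRNA-nc) received a negative control siRNA and the siRNA-Ppp2r5d group an siRNA against Ppp2r5d, both with Lipofectamine RNAiMAX. Cells of both groups were moved to glucose-free medium at 48 h and total RNA was collected 64 h after transfection, and the labels name no further drug. Age and strain are not in the labels.

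Each group is 1 RNA sample on 1 one-colour Agilent array, and whether several wells were pooled is not stated. What the siRNA did thus cannot be told apart from anything else in which the 2 samples differed. No p-value is given. The error attached to each log2 fold change below is the standard error that the scanner software's error model gives for the spots, with a multiplicative part of 10%. It covers measurement of the spot and not the spread between cultures, which was not measured. Each array held 59305 non-control spots, none of them saturated, and well above background were 35544 of them in siRNA-NC and 35174 in siRNA-Ppp2r5d. The Ppp2r5d probe read 4701 intensity units in siRNA-NC and 676 in siRNA-Ppp2r5d, a log2 fold change of -2.61 ± 0.20 (6.09-fold lower), in the direction of the labels. Of 15 cardiomyocyte markers 11 cleared the background somewhere, on 1 array or both. The brightest were Actc1, Ttn, Nkx2-5, Tnnt2 and Gata4, at 640 to 6443 units in siRNA-NC. Myh7, Tnni3, Myl3 and Nppa read 48.1, 54.1, 40.4 and 16.6 units there, and Myh6 and Ryr2 cleared it only in siRNA-Ppp2r5d. Actn2, Myl2, Myl7 and Pln were not above it on either array. Of 10 fibroblast markers 8 were measured, while Thy1 and Tcf21 were not. Col1a1, Col1a2, Col3a1, Dcn and Postn read 10877 to 147519 units in siRNA-NC, and Lum, the dimmest measured, 156. All 5 smooth muscle markers were measured. The cells are called MCMs after their label.

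MMPs are zinc endopeptidases that cut collagens, gelatin, proteoglycans and cell surface proteins. They are made as inactive proenzymes, secreted or held at the membrane, and are switched on by removal of the propeptide. ADAMTS proteases share the metalloproteinase fold but carry thrombospondin repeats, and their best known substrates are large proteoglycans, procollagens and microfibril proteins. ADAMTS-like proteins have the thrombospondin repeats without the catalytic domain. TIMPs bind the active site of these enzymes. In the heart, fibroblasts and muscle cells both make members of these families, and the balance of protease and inhibitor is studied in remodelling of the ventricle.

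Of the 51 genes, 3 differed at least 2-fold between the arrays. Adamts12 was higher in siRNA-Ppp2r5d, and Adamts14 and Adamtsl4 were lower. The first 30 bases of the probes that carry those calls are shown so that each value can be tied to a place in its gene. The Adamts12 probe lies at chr15:11278486-11278545 on the plus strand, the Adamts14 probes at chr10:60659860-60659919 and chr10:60660020-60660079 on the minus strand, and the Adamtsl4 probes at chr3:95480135-95480194 and chr3:95480524-95480583 on the minus strand. These positions come from the array files, in build mm9. The exon or UTR each probe falls in was not analysed here.
Adamts12 probe: atttcagaccctaacttcccatctggttag
Adamts14 probe 1: tcaagtcatgtgtggaccggcctggagatg
Adamts14 probe 2: tttgagggccaagtggcagaggtgcttgtc
Adamtsl4 probe 1: ccacttcacactgaaaatgatgcccacccc
Adamtsl4 probe 2: cctgtgtatgtttatcacttccacaaaagc

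The 250 bases before the start of the same 3 genes are shown next, with those of Mmp3 and Mmp13, which stand for the cluster of MMP genes on chromosome 9 that gave almost no signal. They are RefSeq sequences of build GRCm38.p6, 5′ to 3′ on the strand of the gene. The positions are chr15:11064523-11064772 (plus) for Adamts12, chr10:61273420-61273669 (minus) for Adamts14, chr3:95687918-95688167 (minus) for Adamtsl4, chr9:7445572-7445821 (plus) for Mmp3 and chr9:7272264-7272513 (plus) for Mmp13. Capitals mark the matches, on either strand, to 4 motifs. The AP-1 motif is spelled TGANTCA and the PEA3 motif, a site of ETS factors, AGGAAG. The TATA box was searched as TATAAA and the GC box, bound by SP1-type factors, as GGGCGG. No match of one motif can lie inside a match of another, though neighbouring matches may share bases.
Adamts12 promoter: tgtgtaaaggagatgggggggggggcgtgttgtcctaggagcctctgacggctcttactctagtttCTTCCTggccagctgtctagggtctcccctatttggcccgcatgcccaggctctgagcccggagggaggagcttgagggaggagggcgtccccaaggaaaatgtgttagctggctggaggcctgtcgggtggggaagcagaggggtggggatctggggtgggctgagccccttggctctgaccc
Adamts14 promoter: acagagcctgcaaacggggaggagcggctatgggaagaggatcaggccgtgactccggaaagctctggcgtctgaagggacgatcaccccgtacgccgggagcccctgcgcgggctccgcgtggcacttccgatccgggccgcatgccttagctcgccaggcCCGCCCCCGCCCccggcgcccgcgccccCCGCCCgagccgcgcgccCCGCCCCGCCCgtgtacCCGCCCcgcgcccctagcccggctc
Adamtsl4 promoter: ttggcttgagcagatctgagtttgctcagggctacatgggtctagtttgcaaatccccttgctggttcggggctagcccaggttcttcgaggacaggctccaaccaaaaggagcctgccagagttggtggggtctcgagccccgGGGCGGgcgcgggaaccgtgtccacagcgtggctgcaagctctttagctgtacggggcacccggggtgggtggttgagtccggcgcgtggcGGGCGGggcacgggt
Mmp3 promoter: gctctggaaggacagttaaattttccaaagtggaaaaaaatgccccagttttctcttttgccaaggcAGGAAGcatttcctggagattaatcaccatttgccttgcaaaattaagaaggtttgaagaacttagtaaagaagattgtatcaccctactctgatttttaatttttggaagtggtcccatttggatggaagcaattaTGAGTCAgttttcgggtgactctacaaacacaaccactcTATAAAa
Mmp13 promoter: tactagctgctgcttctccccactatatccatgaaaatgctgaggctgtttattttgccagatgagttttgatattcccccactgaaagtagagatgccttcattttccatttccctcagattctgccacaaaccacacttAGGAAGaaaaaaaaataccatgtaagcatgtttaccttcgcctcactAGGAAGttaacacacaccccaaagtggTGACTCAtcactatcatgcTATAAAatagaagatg

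A gene counted as measured where at least 1 of its probes was well above background. By this rule 30 of the 51 members were measured on at least 1 array, 29 of them on both, and 21 on neither. The measured share was 58.8% of members against 58.4% of all gene names. It differed between families: all 4 Timp genes, 4 of 5 Adamtsl, 13 of 19 Adamts and 9 of 23 Mmp genes were measured. Of the 103 probes 50 were well above background on both arrays, 5 on 1 array and 48 on neither. The call is a flag of the scanner software and not a fixed intensity. The lowest intensity called well above background was 14.9 in siRNA-NC and 13.5 in siRNA-Ppp2r5d.

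**Figure D1:**
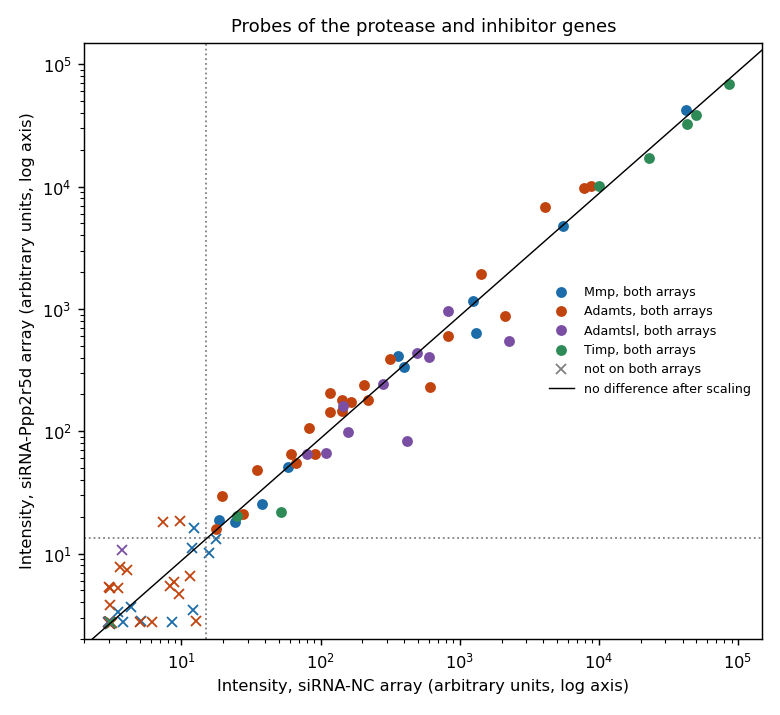
Intensity of each of the 103 member probes on the siRNA-NC array (x axis) and the siRNA-Ppp2r5d array (y axis), in arbitrary scanner units on log axes, coloured by family. Filled circles are the 50 probes well above background on both arrays and crosses the others; the dotted lines mark 14.9 and 13.5 units, the lowest intensities well above background, and probes on the diagonal have a log2 fold change of 0 after scaling.

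Fold changes were taken after dividing each array by its 75th percentile, 592 units in siRNA-NC and 519 in siRNA-Ppp2r5d, which added 0.19 to every raw log2 ratio. Over the members on both arrays, 16 had a log2 fold change above 0 and 13 below, with a median of 0.034. Over all 20311 genes on both arrays, 10941 were above 0 and 9370 below, with a median of 0.024. Scaling to the 10 spike-in probes instead moved every value by -0.21. It left 8 members above 0 and 21 below, and changed the sign of Adamts18, Adamts2, Adamtsl1, Mmp14, Mmp17, Mmp2, Mmp8 and Timp2. A direction given below for one of these 8 genes therefore does not hold under spike-in scaling. Of the 8, Timp2 was also of the other sign in some of the other settings.

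Of the 30 measured members, 1 was at least 2-fold higher in siRNA-Ppp2r5d, where 217 of all 21638 measured genes were (1%). Lower by at least 2-fold were 2 members, where 308 of all measured genes were (1.42%). At 1.5-fold, 4 members were higher (Adamts12, Adamts17, Adamts4 and Adamts7), against 818 genes overall (3.78%), and 2 were lower, against 1169 (5.4%). Every one of these genes is an Adamts or Adamtsl gene, families that hold 13 and 4 of the 30 measured members. Just short of 1.5-fold were Mmp19 (-0.54), Adamtsl3 (-0.51) and Timp3 (-0.50), and in the higher direction Adamts5 (0.53) and Adamts1 (0.51). With spike-in scaling the 1.5-fold counts were 1 higher (Adamts12) and 6 lower, the latter Adamts14, Adamtsl4, Adamtsl3, Mmp15, Mmp19 and Timp3, against 402 and 2493 of all genes. With 1 array a group these counts were not tested, and nothing is drawn from them about the 51 genes as a set.

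**Figure D2:**
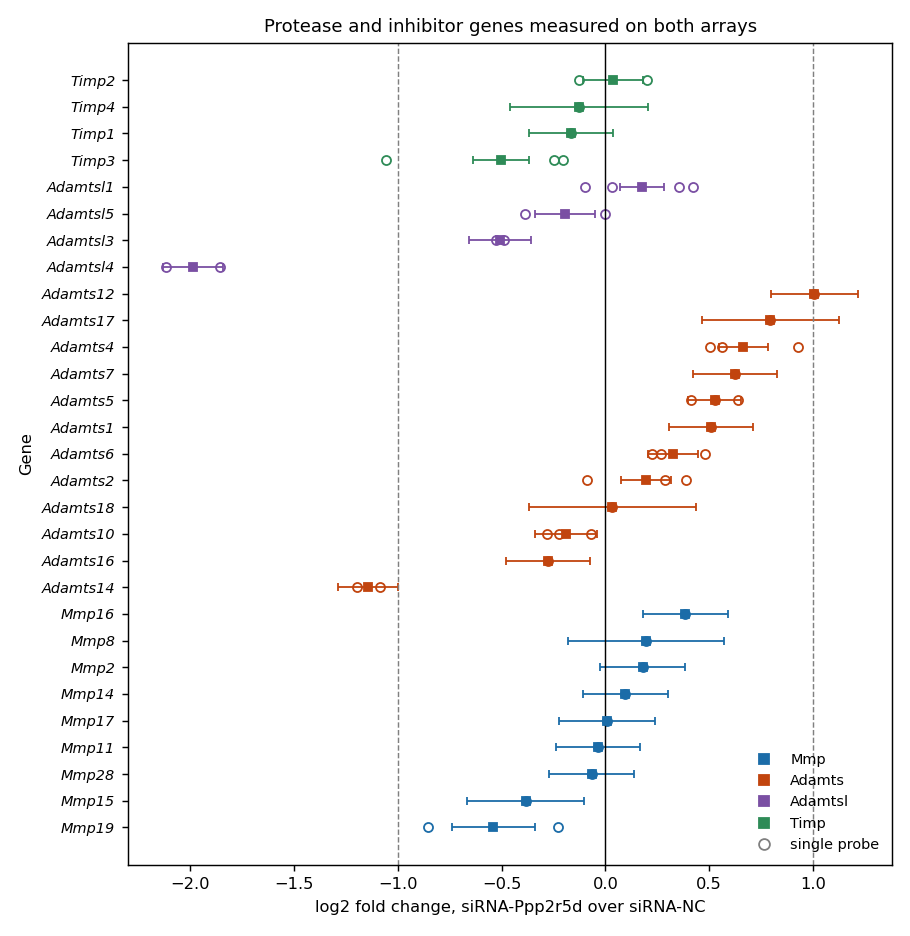
log2 fold change of siRNA-Ppp2r5d over siRNA-NC (x axis) for the 29 genes measured on both arrays (y axis), by family. Squares are the gene values with the scanner error model's standard error, open circles the single probes behind them, and dashed lines mark 2-fold; Adamtsl4 lies farthest from 0 at -1.99 and Adamts12 at 1.01 is the only gene past the upper line; spike-in scaling would move every point by -0.21.

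The families differed in where their values lay. The 12 Adamts genes on both arrays had a median of 0.42 on the log2 scale, with 9 above 0 and 3 below, and a range from -1.14 to 1.01. It was 0.0071 for the 9 Mmp genes, 5 above and 4 below, from -0.54 to 0.39. It was -0.35 for the 4 Adamtsl genes, 1 above and 3 below, and -0.15 for the 4 Timp genes, also 1 above and 3 below. Setting proteases beside inhibitors, the 21 Mmp and Adamts genes had a median of 0.18 and stood 0.33 above the median of the Timp genes. That gap does not depend on a common scaling factor, but it was 0.21 after normexp background correction and 0.14 without a filter on dim probes. Under spike-in scaling 7 of the 12 Adamts genes, 1 of the 9 Mmp genes and none of the 4 Timp genes were above 0. None of these medians was tested.

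**Figure D3:**
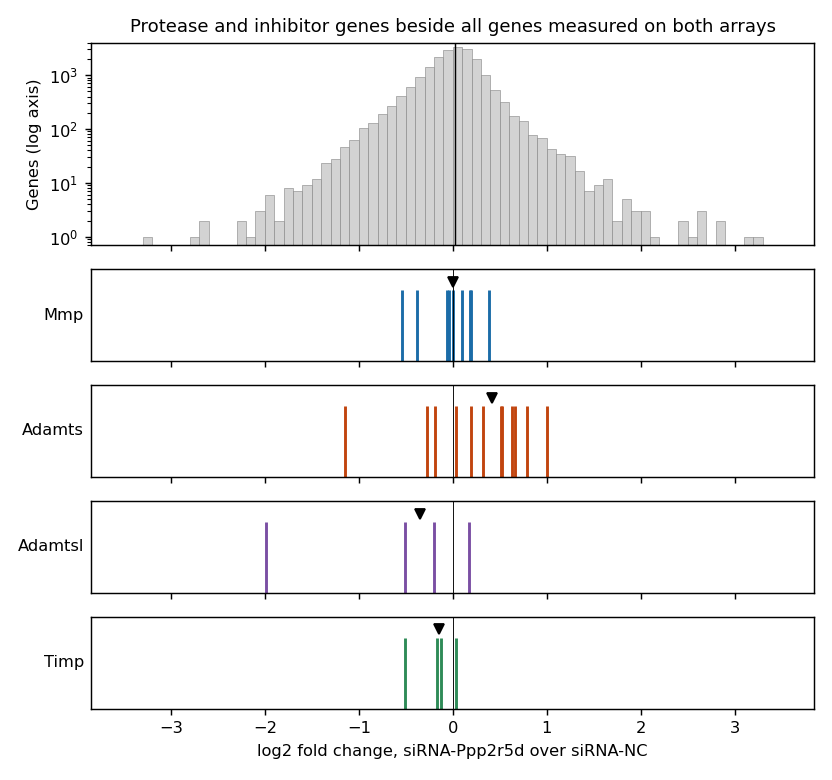
Top, number of genes (log axis) by log2 fold change of siRNA-Ppp2r5d over siRNA-NC for the 20311 genes on both arrays, with a line at their median of 0.024. Below, each vertical line is 1 gene of the family named at the left and the triangle is the family median, 0.0071 for Mmp, 0.42 for Adamts, -0.35 for Adamtsl and -0.15 for Timp; with spike-in scaling all values shift by -0.21 and the Mmp median is below 0.

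The ADAMTS proteases that cut the large proteoglycans aggrecan and versican were higher in siRNA-Ppp2r5d wherever they could be measured on both arrays. Adamts4 is a main aggrecanase. Its 3 probes read 4090.3, 314 and 82.2 units in siRNA-NC and 6814, 391 and 107 in siRNA-Ppp2r5d. All 3 were higher, with log2 fold changes of 0.93, 0.51 and 0.56, and the gene value was 0.67 ± 0.12 (1.59-fold). Adamts5, the other main aggrecanase, had 3 probes at 207, 142 and 35.0 units in siRNA-NC against 241, 179.8 and 47.9 in siRNA-Ppp2r5d. Its log2 fold change was 0.53 ± 0.13 (1.44-fold). The dimmest of these probes lies on the other strand by its coordinates, and without it the value was 0.47.

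Adamts1, which also cuts versican, read 7769 units in siRNA-NC and 9687 in siRNA-Ppp2r5d on its single probe, a log2 fold change of 0.51 ± 0.20 (1.42-fold). Adamts1 and Adamts5 are direct neighbours on chromosome 16, and their values, 0.51 and 0.53, lay well within their errors of each other. The single Adamts8 probe read 7.40 units in siRNA-NC, not well above background, and 17.98 in siRNA-Ppp2r5d, which puts it at least 1.38-fold higher (a log2 bound of 0.46). Adamts9, Adamts15 and Adamts20 were not well above background on either array. The group of 7 thus had 3 values, all above 0 under every processing tried, and 1 bound.

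Adamts7 and Adamts12 cut cartilage oligomeric matrix protein and form a pair by structure, with a mucin-like stretch between their thrombospondin repeats. The Adamts7 probe read 1431 units in siRNA-NC and 1934 in siRNA-Ppp2r5d, a log2 fold change of 0.63 ± 0.20 (1.54-fold). For Adamts12, the probe shown above read 117 units in siRNA-NC and 206 in siRNA-Ppp2r5d, a log2 fold change of 1.01 ± 0.21 (2.01-fold). The call rests on this 1 probe, designed to a cDNA clone. The probe designed to the RefSeq transcript, at 8.87 and 5.89 units, and the third probe, at 3.00 and 2.74, were not well above background on either array. Adamts12 lies at the 2-fold line: it was 0.80 with spike-in scaling, 0.74 after normexp and 0.22 with all 3 probes averaged, and was not called in those settings.

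The procollagen N-proteinases trim the amino-terminal propeptide from fibrillar procollagens so that fibrils can form, and the measured members of this group went opposite ways. Adamts14 read 2109.9 and 607 units on its 2 probes in siRNA-NC and 869 and 232 in siRNA-Ppp2r5d. Both probes were lower, at -1.09 and -1.20, and the gene value was -1.14 ± 0.14 (2.21-fold lower). It stayed past 2-fold in all 9 other ways of processing, between -1.36 and -1.002. Adamts2 had 3 probes at 8833, 220.0 and 60.9 units in siRNA-NC and 10126, 181 and 65.1 in siRNA-Ppp2r5d. These disagreed in sign (0.39, -0.09 and 0.29), the mean was 0.20 ± 0.12, and spike-in scaling turned it to -0.02. Adamts3 was not well above background.

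Of the other ADAMTS proteases, Adamts17 and Adamts6 were higher and Adamts10 and Adamts16 lower. ADAMTS10 and ADAMTS17 act in fibrillin microfibrils, and inherited loss of either causes Weill-Marchesani-type disease of connective tissue. Adamts17 was dim: its best probe read 19.6 units in siRNA-NC and 29.8 in siRNA-Ppp2r5d, a log2 fold change of 0.80 ± 0.33. A second Adamts17 probe was well above background only in siRNA-Ppp2r5d (9.74 and 18.4 units), also in the higher direction, and after normexp the gene value was 0.31. Adamts10 had 3 measured probes, all below 0 (-0.28, -0.07 and -0.22), with intensities of 90.4, 66.3 and 27.9 in siRNA-NC and 65.2, 55.5 and 20.9 in siRNA-Ppp2r5d, and a mean of -0.19 ± 0.15. For Adamts6 the 3 probes read 164, 142.5 and 117 units in siRNA-NC and 174, 146 and 143 in siRNA-Ppp2r5d, and the log2 fold change was 0.33 ± 0.12. The Adamts16 probe went from 829 to 599 units (-0.28 ± 0.20). Adamts18, at 17.8 and 16.0 units, gave 0.03 ± 0.40, a value smaller than its error (-0.18 with spike-in scaling). Adamts19 and Adamts13, the protease of von Willebrand factor, were not well above background.

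The largest difference among all members was in Adamtsl4, whose protein binds fibrillin and is needed to hold the lens of the eye in place. Its 2 probes read 2259 and 416 units in siRNA-NC and 546 and 83.9 in siRNA-Ppp2r5d. Both were lower, with log2 fold changes of -1.86 and -2.12, and the gene value was -1.99 ± 0.15 (3.97-fold lower). In the 9 other ways of processing it lay between -2.20 and -1.67 and stayed past 2-fold. By the RefSeq annotation Adamtsl4 lies between Mcl1 and Ecm1.

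The other ADAMTS-like genes differed less. Adamtsl3 was lower on both of its probes, which read 159 and 110.1 units in siRNA-NC and 99.1 and 67.0 in siRNA-Ppp2r5d, with a gene value of -0.51 ± 0.15 (1.42-fold lower). Adamtsl5, another fibrillin-binding protein, read 603 and 280.2 units in siRNA-NC and 403 and 245 in siRNA-Ppp2r5d. Its probes gave -0.39 and -0.0022, so the mean of -0.20 ± 0.14 rests on 1 of them. Adamtsl1 had 4 measured probes of mixed sign, from -0.10 to 0.42, with a mean of 0.18 ± 0.10 that turned to -0.03 with spike-in scaling. Adamtsl2 was not well above background.

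Among the MMPs, 14 of 23 genes gave no signal well above background on either array, and no measured one differed by 1.5-fold as scaled here. With spike-in scaling Mmp19 (-0.75) and Mmp15 (-0.59) were past 1.5-fold lower, and Mmp19 was so at its brighter probe alone (-0.85). The gelatinase Mmp2, which cuts denatured collagen and basement membrane collagen, read 42355 units in siRNA-NC and 42037 in siRNA-Ppp2r5d (0.18 ± 0.20). The other gelatinase, Mmp9, read 3.04 and 2.74 units on each of its 2 probes, at the bottom of the scale of either array. Mmp14, the membrane-bound MMP that activates the Mmp2 proenzyme, went from 1244 to 1165 units, a log2 fold change of 0.10 ± 0.20 after scaling. Neither Mmp2 nor Mmp14 differed between the arrays by more than its error, and both turned below 0 with spike-in scaling (-0.03 and -0.11).

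The remaining membrane-type MMPs were of mixed sign. Mmp16 read 358 units in siRNA-NC and 410.0 in siRNA-Ppp2r5d on its brightest probe, 0.39 ± 0.20, while its 2 dimmer probes were each above background on a different array. Mmp15 was dim (38.0 and 25.5 units, -0.38 ± 0.28) and was -0.04 after normexp. Mmp17, at 58.0 and 51.1 units, gave 0.0071 ± 0.23, and -0.20 with spike-in scaling. Mmp24 and Mmp25 were not measured.

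Mmp19 had the lowest value of the MMPs. It is a secreted MMP first described as an autoantigen in rheumatoid arthritis. Its brighter probe read 1319 units in siRNA-NC and 639.9 in siRNA-Ppp2r5d (-0.85 ± 0.20), and its dimmer probe 24.4 and 18.3 units (-0.23 ± 0.35). Both were lower and the mean was -0.54 ± 0.20 (1.45-fold lower). Mmp11, a stromelysin by name that is activated inside the cell by furin, went from 5555 to 4747 units, which is -0.04 ± 0.20 after scaling. Mmp28 (399 and 334 units) gave -0.06 ± 0.20. Mmp21 and Mmp23 were not well above background.

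A run of 10 MMP genes lies on chromosome 9, with probes from 7282762 to 7699535 in mm9. It holds the interstitial collagenases Mmp1a, Mmp1b, Mmp8 and Mmp13, the stromelysins Mmp3 and Mmp10, matrilysin (Mmp7), macrophage elastase (Mmp12), enamelysin (Mmp20) and Mmp27. Of these 10 genes and their 14 probes, 1 gene was measured: Mmp8, at 18.6 and 18.7 units, with a log2 fold change of 0.20 ± 0.38 (-0.01 with spike-in scaling). The single Mmp3 probe read 3.07 and 2.75 units and that of Mmp13 read 2.97 and 2.74. Mmp7 was the brightest of the rest, with 12.1 units in siRNA-NC and 3.48 in siRNA-Ppp2r5d on its brighter probe. Neither of these was well above background, so no fold is given. For these genes a difference between the arrays was not detectable at this signal.

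The TIMPs were all measured, and none differed by 1.5-fold, except Timp3 with spike-in scaling (-0.72). Timp1 binds most MMPs but is weak against the membrane-type enzymes. It read 49676 units in siRNA-NC and 38807 in siRNA-Ppp2r5d, a log2 fold change of -0.17 ± 0.20. Timp2, which also takes part in the activation of Mmp2 by Mmp14, had probes at 86279 and 10067 units in siRNA-NC and 69268 and 10146.5 in siRNA-Ppp2r5d. They differed in sign (-0.13 and 0.20), and the mean of 0.04 ± 0.14 turned below 0 with quantile normalization, cyclic loess, spike-in scaling, the authors' values and the brighter probe alone.

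Timp3 stays bound to the matrix and also inhibits several ADAMTS proteases, among them the aggrecanases. Its 2 bright probes read 42713 and 23050 units in siRNA-NC and 32445 and 16985 in siRNA-Ppp2r5d, -0.21 ± 0.20 and -0.25 ± 0.20. The remaining probe, dim and designed to another transcript, read 51.9 and 21.9 units (-1.06 ± 0.29) and pulled the mean to -0.50 ± 0.14. Without that probe Timp3 stood at -0.23. Timp4, the TIMP best known from the heart, was dim here, at 25.0 and 20.1 units (-0.13 ± 0.33), and turned to 0.10 after normexp. Timp1, Timp3 and Timp4 lie within the introns of synapsin genes, and the annotation lists each as overlapping Syn1, Syn3 and Syn2.

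Probes of the same gene read parts of the same RNA on the same 2 arrays, so they check the measurement and not the biology. Of the 13 genes with at least 2 measured probes, 10 had all probes on the same side of 0. The exceptions were Timp2, Adamts2 and Adamtsl1. All 3 genes past 2-fold were past it at their brightest probe, and Adamts14 and Adamtsl4 were so at both.

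**Figure D4:**
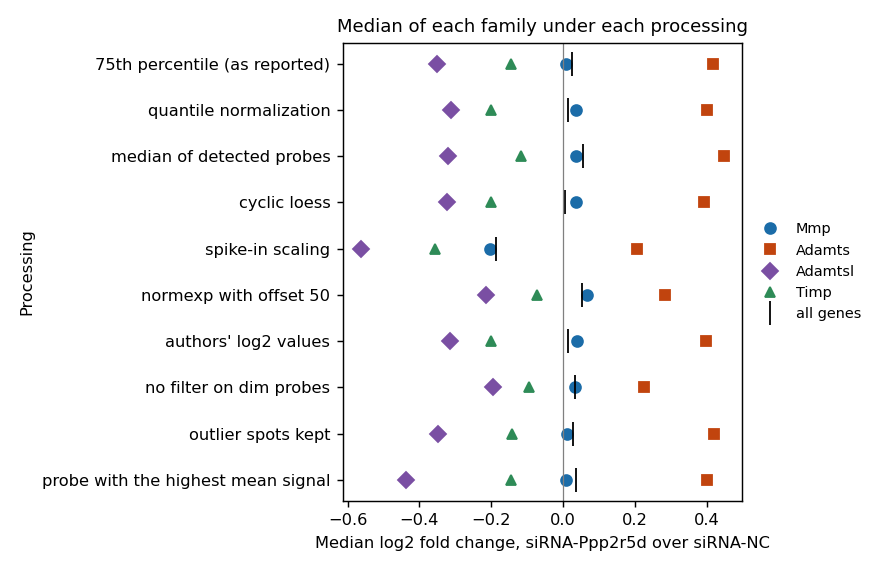
Median log2 fold change of siRNA-Ppp2r5d over siRNA-NC (x axis) of each family and of all genes under the processing as reported and 9 other ways (y axis). The Adamts median lies right of all the others and right of 0 in every row, from 0.21 to 0.45; with spike-in scaling every median shifts left by 0.21 and the Mmp median falls below 0.

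The promoters were compared for shared letters, which the choice of genes did not use. RefSeq gave windows of 250 bases before the start for 36 of the 51 genes, 39 windows in all. A match is a description of the letters and not a binding site. The AP-1 motif TGANTCA was in 8 of the 39 windows (20.5%), against 6.75% of all 32851 promoter windows. All 8 belong to genes of the chromosome 9 cluster: Mmp1a, Mmp1b, Mmp3, Mmp7, Mmp10, Mmp12, Mmp13 and Mmp20. In Mmp13 the match began 35 bases before the start and in Mmp3 46 bases before it. Mmp8 and Mmp27 were the 2 cluster genes without one, and none of the 26 other genes with a window held it. So no gene with an AP-1 match was measured on either array.

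The GC box GGGCGG had the opposite distribution. It was in 20 of the 39 windows (51.3%), against 32.7% of all promoters, and in none of the 10 cluster genes. Of the 18 members with a window and a measured level, 14 held a GC box, against 6 of the 18 that were not measured. Those not measured include 9 cluster genes, none with a GC box, so this contrast in large part repeats that of the cluster. Outside the cluster 20 of 26 genes held one. The same contrast over all genes of the array was not made. Adamts14, shown above, held 6 matches and Adamtsl4 held 2, while Adamts12 held none and 1 PEA3 match. The TATA box letters were in 10 windows (25.6%, against 12.4% of all), of which 7 belong to the cluster, and PEA3 in 14 windows (35.9%, against 29.5%). GC boxes were thus found in both genes that were 2-fold lower, in Adamts1, which was higher, in Mmp11 and Mmp28, whose values lay within their errors of 0, and in genes that were not measured.

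**Figure D5:**
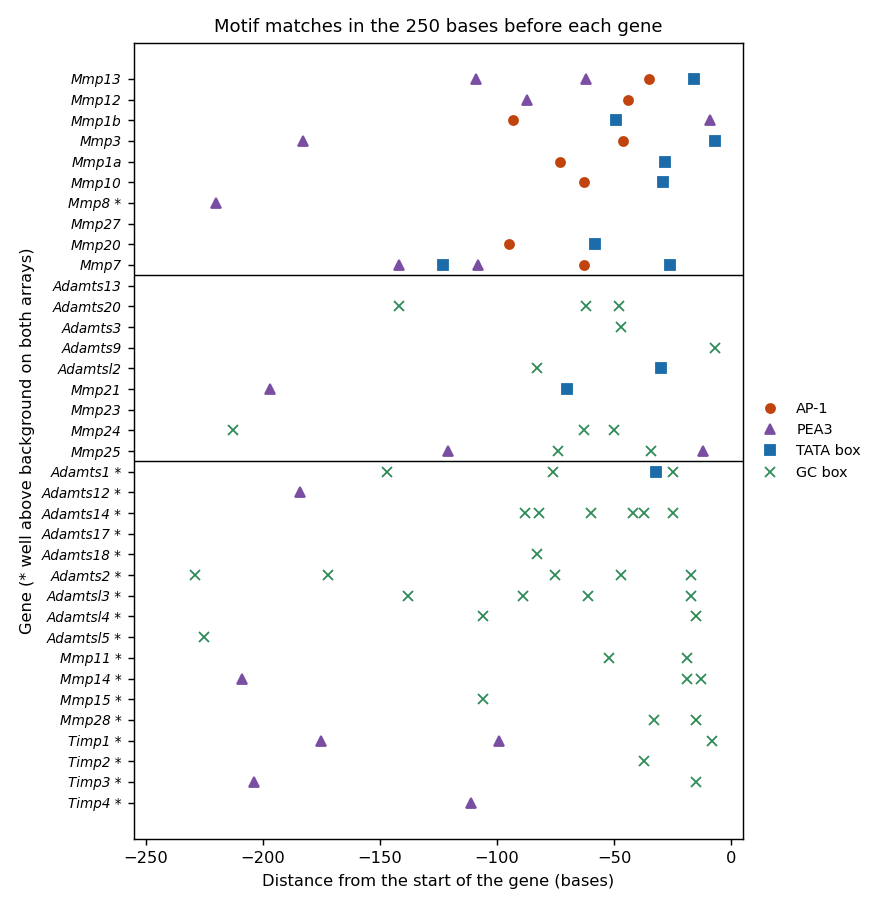
Position of each motif match (x axis, bases from the start of the gene, negative before it) in the 250 bases before the 36 members with a RefSeq window (y axis; windows of 1 gene are drawn on 1 line). The top block is the chromosome 9 cluster, which holds all 8 AP-1 matches and no GC box; the middle block holds other genes not measured on either array and the bottom block those measured on both.

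Activators and cell surface inducers of these proteases were read from a list of 13 genes. Of them 10 were measured, 9 on both arrays, with 5 above 0, 4 below and a median of 0.00086. None was 2-fold different. The lowest were the plasminogen activator Plat (-0.78 ± 0.15) and the urokinase receptor Plaur (-0.58 ± 0.20), which act in making plasmin, an activator of MMP proenzymes. Urokinase itself, Plau, gave 0.15 ± 0.15. Of the proprotein convertases, Furin gave 0.13 ± 0.14 and Pcsk6 -0.35 ± 0.17. Bsg, a surface protein known to induce MMPs, gave 0.17 ± 0.20, and Mep1a was measured only in siRNA-Ppp2r5d, with a log2 bound of 0.60. Plg, Pcsk5 and Mep1b were not measured. With spike-in scaling all 9 genes on both arrays were below 0, Bsg the highest at -0.04. That scaling moves every value by -0.21, so the counts above and below 0 of this and the later lists depend on it.

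Of 13 genes listed as protease inhibitors other than TIMPs, 10 were measured, 9 on both arrays. Of these 3 were above 0 and 6 below, with a median of -0.093, and none was 2-fold different. Those below 0 include Pcolce (-0.10 ± 0.05), which by name is the procollagen C-proteinase enhancer and not an inhibitor. Papln, related to the ADAMTS-like proteins, gave -0.45 ± 0.24. Reck, a membrane-anchored MMP inhibitor, was highest at 0.24 ± 0.20. Among 5 genes of uptake and clearance, 4 were measured with a median of 0.059: Lrp1, the receptor that takes up MMPs, ADAMTS proteases and TIMPs, gave 0.03 ± 0.12, and its ligands Thbs1 and Thbs2 gave 0.39 ± 0.14 and -0.37 ± 0.20.

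Markers of other cell types differed between the arrays beside the members. The smooth muscle list had 2 genes above 0, Cnn1 (2.41) and Tagln (0.85), and 3 below, Myh11 (-0.38), Smtn (-0.11) and Acta2 (-0.02), with a median of -0.02. The fibroblast list had 3 above 0, Lum (1.08), Pdgfra (0.62) and Postn (0.12), and 5 below, from -0.32 to -0.05, with a median of -0.07. Of the cardiomyocyte list 6 were above 0 and 3 below, with a median of 0.08. The macrophage list had a median of -0.37 over 4 of 6 genes, with Cd68 at -0.77, Lyz2 at -0.68, Csf1r at -0.07 and Ptprc at 0.13. Summed over the brightest probe of each gene of a list, measured or not, the fibroblast list read 308353 units in siRNA-NC and 288208 in siRNA-Ppp2r5d, the smooth muscle list 147494 and 134239, the macrophage list 4014 and 2623, and the cardiomyocyte list 10330.1 and 9522, before scaling. In the same way the neutrophil list read 268 and 414 units and the endothelial list 88.5 and 76.5. All these sums still hold the difference between the arrays in 75th percentile, 592 units in siRNA-NC and 519 in siRNA-Ppp2r5d. Most of the smooth muscle sum was Acta2, at 133436 and 115480 units. Of 5 neutrophil markers 3 were measured, S100a8 (1.57), Elane (-0.03) and Mpo (-0.05). Of 6 endothelial markers 2 were measured, and Cdh5, Kdr, Vwf and Cldn5 were not. The part of cell make-up in the values of the protease and inhibitor genes was not tested, and in a bulk sample fewer cells of a type and less RNA per cell cannot be told apart.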

How the data were processed

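Total RNA, 1 sample per condition, was labelled with Cyanine 3 and hybridised to Agilent 8 × 60K mouse arrays. The authors read intensities with Feature Extraction 10.7.1.1. The deposited scanner files give a processed intensity per spot, already background-corrected, and both arrays shared a slide and a scan. A second deposited table holds the authors' log2 values of 56605 probes. Its method is not given in the sources used here, and it differed from quantile normalization of the same intensities by a median of 0.00013. It was used as an alternative only.

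Here control spots and spots marked as outliers (226 and 188) were left out, spots of a probe were averaged, and log2 intensities had each array's 75th percentile subtracted. Gene values are means over those of the gene's probes that stood well above background on each of the 2 arrays. For a gene above it on 1 array only, a bound was taken, with the dim array set to its own signal or to the lowest signal called well above background, whichever was higher. Log2 fold changes of 283 probes with at least 8 repeat spots had a median SD of 0.036. The step was tested on simulated data. With 1 array per condition no test across samples was possible.

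The genes, the lists of activators, inhibitors, receptors and cell type markers, and the motifs were chosen with earlier results of these data known. Every member may be named, as may the measured activators, inhibitors other than TIMPs and clearance genes. Of the other lists the rule names genes that differed at least 2-fold. Further substrates, inducers, ADAM proteases and markers were picked as examples after their values were seen. Names and sequences of genes came from RefSeq (GRCm38.p6), and no coordinate was moved between builds. Single values of some list genes are not reported here. Python 3.11.15, pandas 2.3.3, R 4.3.3 and limma 3.58.1 were used.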

Additional observations from a re-analysis of the deposited data

How the results depend on the processing

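No paired analysis was possible because each condition is 1 array, and for the same reason no replicate could be left out. Adamts14 and Adamtsl4 kept their call in all 9 other ways of processing, and 9 of the 12 Adamts genes were above 0 in all of them except spike-in scaling. The causes of the other differences were not tested, beyond what each setting does by construction. The number of members at least 2-fold higher, 1 as reported, was 0 with spike-in scaling, 0 after normexp (whose offset of 50 pulls dim values together), 2 without a filter on dim probes (Adamts8 and Adamtsl2), 4 at a 1.5-fold threshold and 0 at 4-fold. The number at least 2-fold lower, 2 as reported, was 0 at 4-fold and 3 without the filter, which added Mmp7. Over all genes the 217 higher and 308 lower calls became 934 and 1106 without the filter, 62 and 45 after normexp, and 122 and 619 with spike-in scaling. The Mmp median turned to -0.20 with spike-in scaling and was 0.067 after normexp. The Adamts median was 0.21, 0.28 and 0.22 with spike-in scaling, normexp and no filter. Relative to the median of all genes it was 0.39 as reported and with spike-in scaling, 0.23 after normexp and 0.19 without the filter. The Adamtsl median was -0.31 with quantile normalization, -0.56 with spike-in scaling, -0.21 after normexp, -0.31 in the authors' values, -0.20 without the filter and -0.44 with the brightest probe. In the same order the Timp median was -0.20, -0.36, -0.073, -0.20 and -0.095, and it was -0.20 after cyclic loess. Proteases minus TIMPs gave 0.28 after cyclic loess, 0.21 after normexp and 0.14 without the filter. Leaving out the Adamts5 probe on the other strand or the dimmest Timp3 probe, both chosen after seeing the data, changed neither count. Signal over background limits the 21 members not measured and the dim values of Adamts17, Adamts18, Mmp8, Mmp15 and Timp4.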

Other observations

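Other genes of the same clan, most but not all of them coding for active zinc proteases, were read from a list of 17. Of these 14 were measured, 8 above 0 and 6 below, with a median of 0.025. The 1 gene past 2-fold was Adam19, a membrane-bound ADAM protease with a role in heart development, at 3101 units in siRNA-NC and 6216 in siRNA-Ppp2r5d (1.19 ± 0.20). It was 0.98 with spike-in scaling, short of 2-fold. The sheddases Adam10 and Adam17 gave -0.13 ± 0.15 and 0.0019 ± 0.12, and Bmp1, the procollagen C-proteinase, 0.05 ± 0.12.

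Of 31 matrix proteins that these enzymes cut, 28 were measured, 27 on both arrays, with a median of 0.035. Higher by at least 2-fold were Tnn (1.36 ± 0.23), Nid1 (1.15 ± 0.12) and Lum (1.08 ± 0.21), and none was 2-fold lower. Comp, the substrate of Adamts7 and Adamts12, came nearest at -0.98 ± 0.24. It was dim, at 83.6 units in siRNA-NC and 37.1 in siRNA-Ppp2r5d, and was -0.35 after normexp. With spike-in scaling Nid1 (0.94) and Lum (0.87) were short of 2-fold and Comp (-1.19) was past it, after normexp Tnn (0.75) and Lum (0.88) were short of it, and so was Nid1 by its brightest probe alone. Vcan, cut by Adamts1, Adamts4 and Adamts5, gave 0.33 ± 0.12, and Acan was not measured.

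Of 31 cytokines and transcription factors known to induce matrix proteases, 28 were measured, 14 above 0 and 14 below. Their median was 0.0015 and none was past 2-fold. With spike-in scaling Fosb (-1.14) and Pdgfb (-1.08) were past it, while after normexp Fosb was -0.92 and Pdgfb -0.35. The AP-1 genes Fosb, Jun and Fos gave -0.93 ± 0.20, -0.49 ± 0.20 and -0.40 ± 0.20, and Fosl1 and Junb gave 0.01 ± 0.20 and 0.09 ± 0.14. Il1a, Il1b and Osm were not measured on either array.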
